A study of Mus musculus with 9 samples.

Results

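ATF4 and the unfolded protein response genes are a set of 33 genes, chosen by name, that cells switch on when amino acids run short or when unfolded proteins build up in the endoplasmic reticulum (ER). All 33 were found by symbol among the 24411 genes of the deposited tables, and all 33 had enough counts to be tested, among 14300 tested genes. They were followed in EB5 mouse embryonic stem (ES) cells, a line of 129Ola origin made from male E14tg2a cells and carrying the allele Oct3/4IRES-BSD-pA/+, which puts a blasticidin resistance gene under control of the pluripotency gene Oct3/4. The 3 genotypes had 3 RNA-seq libraries each. Parental cells were unedited EB5 cells, Zfp352-KO (below, KO) cells had lost the zinc finger gene Zfp352 through CRISPR-Cas9 cutting, and Zfp352/Zfp353-DKO (below, DKO) cells had lost its relative Zfp353 as well. All cells were grown with fetal calf serum, a nonessential amino acid supplement and leukemia inhibitory factor on gelatin. The labels do not say how many clones stand behind a genotype or whether libraries came from separate cultures, so a p-value here reflects how far libraries of a genotype scatter, and that scatter may be technical.

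In mammalian cells, uncharged tRNAs or unfolded ER proteins activate kinases such as GCN2 and PERK, which phosphorylate the initiation factor eIF2 and slow protein synthesis. The mRNA of Atf4 is then translated more efficiently, and the ATF4 protein, often paired with a C/EBP factor, turns on genes for amino acid synthesis, amino acid uptake and tRNA charging. In the ER, the sensors IRE1 and ATF6 act in parallel: IRE1 splices the mRNA of Xbp1, and XBP1 and ATF6 raise the chaperones that fold secreted proteins. Because ATF4 is set largely by translation and XBP1 by splicing, gene-level RNA counts do not measure the activity of either protein directly, whereas the RNAs of their targets are the usual readout.

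These arms read different promoter letters, shown here for members of both. Promoter windows from RefSeq (build GRCm38.p6, 250 bases before to 50 after a start site) were at hand for 29 of the 33 genes. The amino acid response element core TGATGNAA, searched on both strands, occurred in the windows of 9 members (Aars, Asns, Chac1, Gars, Herpud1, Nupr1, Pycr1, Slc7a11 and Trib3), against 3.97% of 32851 promoter windows of all genes. The ER stress element, which joins the letters CCAAT and CCACG through a spacer of 9 bases of any kind, was searched likewise and occurred in 3 members (Calr, Hsp90b1 and Hspa5), against 0.119% of all windows. No promoter held both motifs among these members. Each sequence below is written 5′ to 3′ on the strand of its gene, with each match in capitals. A match is a description of the letters and not evidence of binding. The first 4 lines hold the amino acid response element core, read on the opposite strand in Chac1, Nupr1 and the second match of Slc7a11, and the last 3 hold the ER stress element, read on the opposite strand in Calr.
Asns, chr6:7693210-7693252, minus strand: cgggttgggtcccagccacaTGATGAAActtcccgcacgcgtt
Chac1, chr2:119351029-119351076, plus strand: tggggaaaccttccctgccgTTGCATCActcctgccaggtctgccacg
Nupr1, chr7:126625553-126625600, minus strand: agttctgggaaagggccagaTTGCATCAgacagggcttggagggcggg
Slc7a11, chr3:50443652-50443699, minus strand: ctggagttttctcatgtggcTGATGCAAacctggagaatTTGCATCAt
Hspa5, chr2:34772005-34772063, plus strand: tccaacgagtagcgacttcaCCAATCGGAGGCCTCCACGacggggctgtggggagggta
Hsp90b1, chr10:86705618-86705676, minus strand: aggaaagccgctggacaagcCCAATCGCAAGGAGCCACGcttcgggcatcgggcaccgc
Calr, chr8:84847055-84847113, minus strand: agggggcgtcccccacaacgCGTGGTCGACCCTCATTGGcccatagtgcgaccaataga

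The libraries held between 16599004 and 22044820 expected counts, and a member's count in a library lay between 71 and 19289. Zfp352 had 41 to 52 counts in Parental libraries, 3 to 10 in KO and 1 to 3 in DKO. Spearman's rho across genes between transcript length and a library's log2 CPM (counts scaled to library size), less the mean of all libraries, was negative in all Parental libraries (-0.412 to -0.0812) and between -0.127 and 0.405 in the edited ones. The summed TPM (a level scaled by transcript length and depth) of 12 ES cell markers was 8380 to 8534 in all 9 libraries. Of these markers, Tfcp2l1 rose in both edited genotypes (log2 fold change 0.37 in each, edgeR adjusted p = 0.00081 and 0.00042) and Sox2 rose in DKO cells (0.19, adjusted p = 0.011). The summed TPM of 18 fibroblast markers was 222 to 225 in Parental, 142 to 162 in KO and 125 to 134 in DKO libraries. Of 15 fibroblast markers tested, edgeR called 7 lower in each edited genotype than in Parental. Col1a1, Col1a2, Col5a1, Acta2, Tagln and S100a6 were called in both, with Thy1 in KO and Col3a1 in DKO cells. Fbln1, Twist1, Pdgfra, Pdgfrb, Postn, Col6a1 and Col6a2 were not called in either. The defining markers Lum and Dcn reached at most 0.05 and 0.25 TPM in any library. The summed TPM of 11 trophectoderm markers was 402 to 462, 298 to 302 and 265 to 277, in the same order. Of 10 trophectoderm markers tested, edgeR called 5 lower in each edited genotype (Cdx2, Krt8, Krt18, Krt19 and Hand1). The factors Gata3, Eomes and Tfap2c, and also Krt7 and Plac1, were not called in either. The summed TPM of 11 primitive endoderm markers was 203 to 214 in Parental, 169 to 186 in KO and 158 to 171 in DKO libraries. Among the endoderm markers Sparc, Col4a1 and Col4a2 fell in both edited genotypes, while Lama1 rose in DKO cells (0.37, edgeR adjusted p = 0.0041). The defining factor Gata6 stood at 0.26 and 0.39 (edgeR adjusted p = 0.76 and 0.61). Its level was very low, 0.5 to 0.64 TPM in Parental, 1.5, 0.41 and 0.32 in KO and 0.55 to 0.86 in DKO libraries. Gata4, Sox17, Dab2, Pdgfra and Amn were not called in either. In bulk RNA, fewer cells of a type and less RNA per cell cannot be told apart.

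In unedited ES cells these genes were far from silent. TPM, which can be compared between genes because it is scaled by length, averaged from 0.990 ± 0.0557 (SD, n = 3) for Slc7a11, the cystine importer, to 1033 ± 22.1 for Eif4ebp1, which encodes the translation repressor 4E-BP1. Atf4 itself stood at 289 ± 3.81 TPM, above 96.6% of tested genes. The 33 genes together took up 0.613% of all TPM in Parental, 0.624% in KO and 0.613% in DKO libraries. By role, the summed TPM in Parental libraries was 1608 ± 32.9 for 9 ATF4 and stress regulators, 1266 ± 9.29 for 9 amino acid and one-carbon enzymes, 408 ± 7.17 for 3 amino acid transporters, 1138 ± 6.08 for 4 tRNA synthetases and 1709 ± 14.7 for 8 ER genes (Xbp1, chaperones and ER-associated factors). Most of the ER sum came from the chaperones Calr (668 ± 18.0 TPM), Hsp90b1 (472 ± 10.5) and Hspa5 (296 ± 8.44), whereas the classical stress-inducible genes Ddit3 (37.0 ± 2.41), Trib3 (30.8 ± 1.81) and Dnajb9 (15.7 ± 0.689) were far lower.

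**Figure D1:**
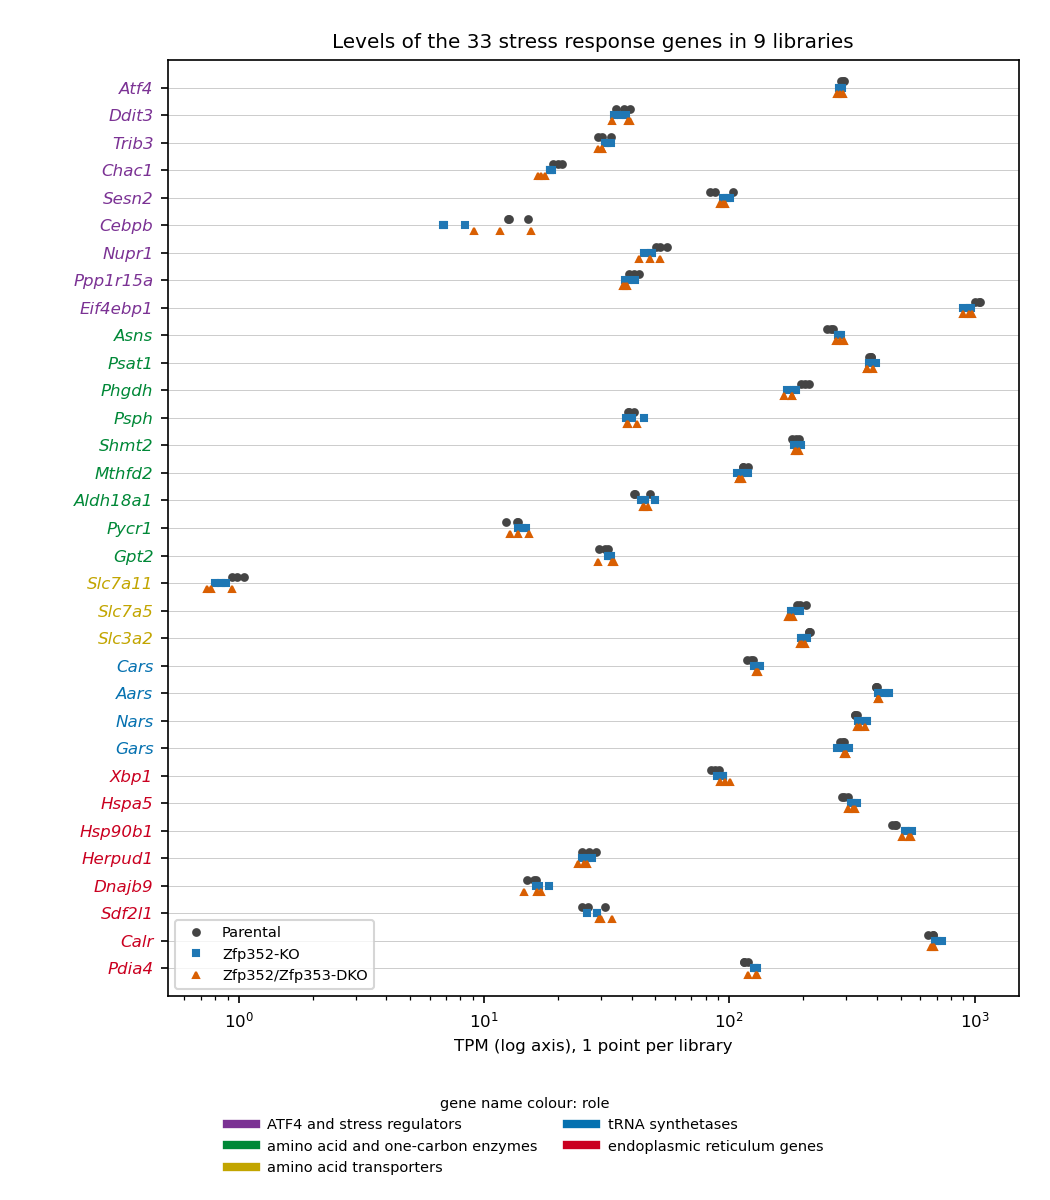
TPM of each of the 33 genes on a logarithmic axis, with 1 point per library (circles Parental, squares Zfp352-KO, triangles Zfp352/Zfp353-DKO) and gene names coloured by role. Levels run from 0.740 TPM for Slc7a11 to 1051 for Eif4ebp1, and the 3 genotypes lie close together for most genes, with the widest separation at Cebpb.

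In cells without Zfp352 alone the module lay close to its Parental level, apart from Cebpb. In KO against Parental cells, 0 of the 33 genes rose and 2 fell, Cebpb and Phgdh, by edgeR's quasi-likelihood test at an adjusted p under 0.05. At an unadjusted p under 0.05, 1 member was above Parental (Hsp90b1), and DESeq2 and limma-trend each called it higher. The 2 calls are 6.06% of the members, near the 7.06% of all tested genes called in this comparison (3.43% higher and 3.64% lower). That share of all genes depended on single libraries: it was 1.45% without Parental library 1, 2.64% without Parental library 2, 1.91% and 2.55% without KO library 1 or 2, and 10.7% without DKO library 3. In either direction there were 7 members (21.2%) at an unadjusted p under 0.05, against 23.7% of all genes. The median log2 fold change of the members was -0.02, with 16 above 0 and 17 below, and the median size was 0.07, against 0.11 over all genes. The median standard error was also smaller, 0.054 for the members against 0.083 over all genes, so the 2 median sizes differ in precision. For 29 of the 33 genes the 95% interval of the fold change lay within 1.25-fold in either direction. The 4 whose interval was wider or further off were Cebpb, Nupr1, Phgdh and Slc7a11, and of these only Cebpb reached beyond 1.5-fold.

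In cells without both genes, 3 members showed small decreases. In DKO against Parental cells, 0 members rose and 3 fell, Phgdh, Slc7a5 and Chac1, which is 9.09% of the members against 8.47% of all tested genes (3.65% higher and 4.82% lower). The share of all genes was 3.11% and 4.48% without Parental library 1 or 2, and 4.45% and 4.72% without DKO library 2 or 3. Hsp90b1 was again the single member above Parental at an unadjusted p under 0.05, and DESeq2 and limma-trend each called it. There were 10 members (30.3%) at an unadjusted p under 0.05, against 24.5% of all genes. The members' median log2 fold change was -0.02, with 12 above 0 and 21 below, and their median size was 0.07, against 0.11 over all genes. Their median standard error was 0.054, against 0.082 over all genes. The interval stayed within 1.25-fold for 28 genes, all but Chac1, Cebpb, Nupr1, Phgdh and Slc7a11, and within 1.5-fold for all but Slc7a11. The Parental libraries are shared by both comparisons, so the values in the 2 edited genotypes are not independent of each other.

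Between the 2 edited genotypes the module differed least. In DKO against KO cells, edgeR called 0 members, against 0.105% of all tested genes (0.0140% higher and 0.0909% lower). At an unadjusted p under 0.05 there was 1 member, Cebpb (3.03%, against 6.43% of all genes), DESeq2 called 1 (Cebpb) and limma-trend called 0. Leaving Cebpb aside, log2 fold changes in this comparison ran from -0.12 (Chac1) to 0.15 (Sdf2l1).

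**Figure D2:**
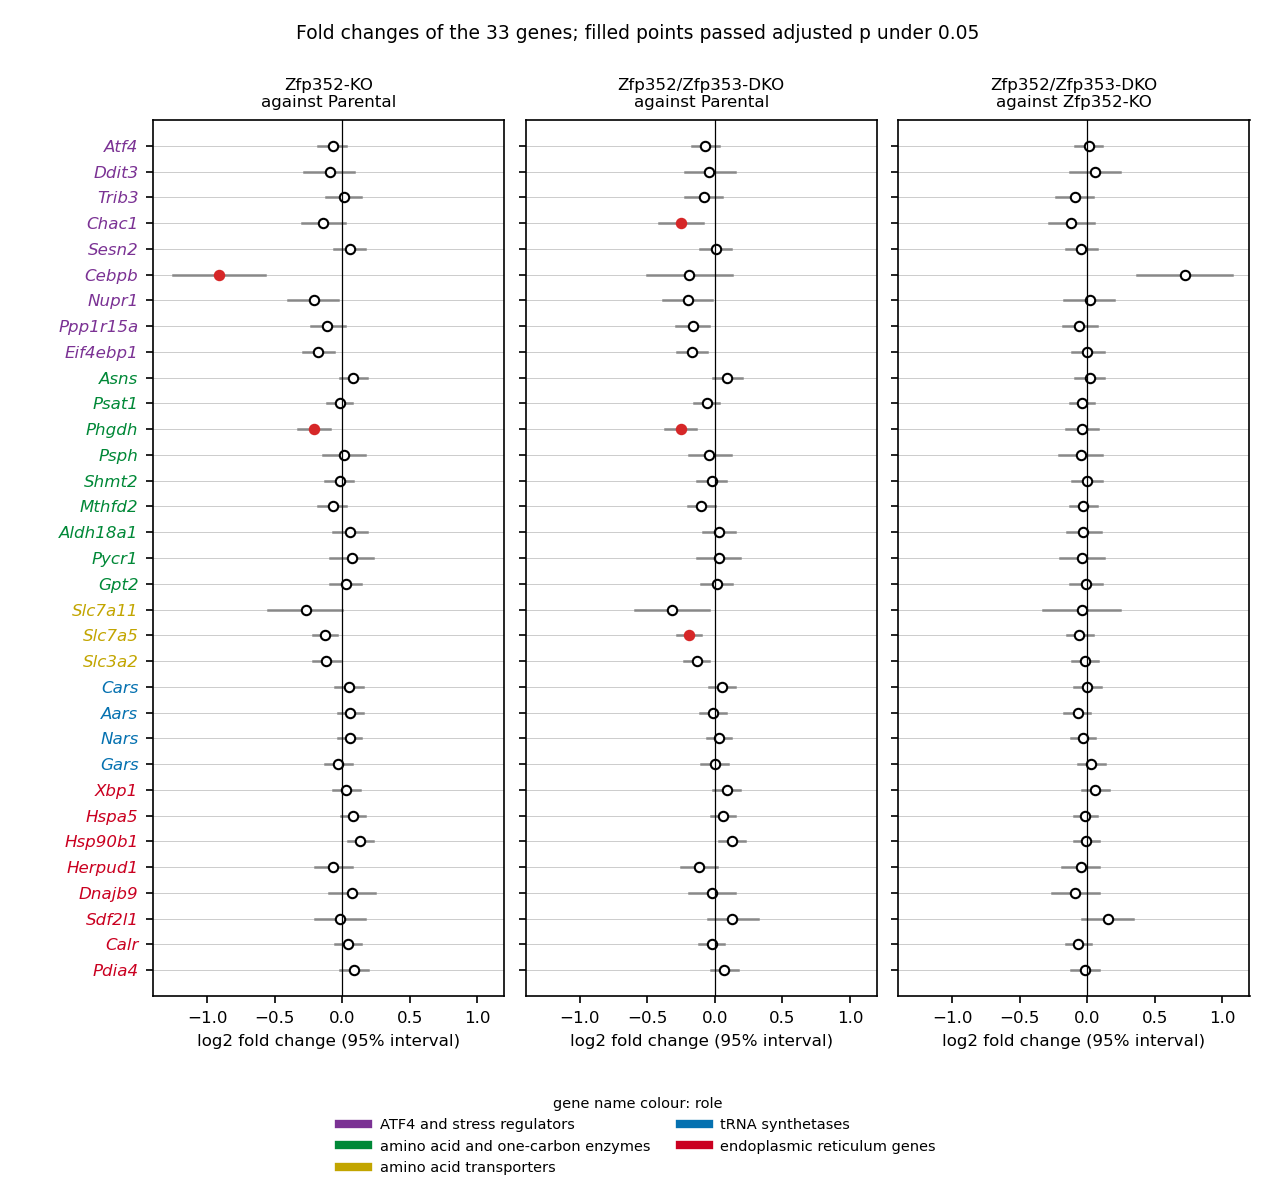
Log2 fold change of each of the 33 genes (points) with its 95% interval (lines) in the 3 comparisons, filled where edgeR's adjusted p was under 0.05. Most intervals span or touch 0 within a narrow band, the filled points are Cebpb and Phgdh in the first panel and Chac1, Phgdh and Slc7a5 in the second, and the third panel has none.

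The 9 regulators had a median log2 fold change of -0.11 in KO cells, with 2 values above 0 and 7 below. In DKO cells the median was -0.16, with 1 above and 8 below. The median transcript length was 2238 bases for the 33 members and 2803 for all tested genes. The part of the length relation described above in these medians was not tested. Over the 23 alternatives, Atf4 ran from -0.10 to 0.04 in KO and from -0.09 to 0.03 in DKO cells. Ddit3 ran from -0.12 to 0.06 and from -0.08 to 0.09. Chac1 reached 0.01 in KO cells. Cebpb, Nupr1, Ppp1r15a and Eif4ebp1 stayed below 0 in both. Among the regulators, Atf4 RNA was steady. It measured 292, 290 and 285 TPM in Parental libraries 1 to 3, 282, 288 and 281 in KO and 284, 291 and 275 in DKO, so the 3 genotypes overlapped. Its log2 fold change against Parental was -0.07 ± 0.05 (SE) in both edited genotypes (edgeR adjusted p = 0.38 and 0.43), with 95% intervals of -0.18 to 0.03 and -0.17 to 0.03. Ddit3, which encodes the pro-apoptotic factor CHOP, measured 37.4, 34.4 and 39.2 TPM in Parental, 37.8, 33.8 and 36.1 in KO and 38.7, 39.2 and 33.1 in DKO libraries, and the groups again overlapped. The Ddit3 fold changes were -0.09 ± 0.09 and -0.04 ± 0.09 on the log2 scale (edgeR adjusted p = 0.57 and 0.84). Trib3, a pseudokinase that restrains ATF4 signalling, lay at 0.01 ± 0.06 and -0.08 ± 0.06, and Sesn2, a leucine sensor upstream of mTORC1, at 0.06 ± 0.06 and 0.01 ± 0.06. Ppp1r15a encodes GADD34, the phosphatase subunit that removes the phosphate from eIF2. It stood at -0.11 ± 0.06 in KO and -0.16 ± 0.06 in DKO cells (edgeR adjusted p = 0.28 and 0.093).

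Cebpb was the member with the largest difference in KO cells. It encodes a C/EBP bZIP factor that can dimerize with ATF4, and lies at chr2:167688915-167690432. Its level was 15.1, 12.5 and 12.7 TPM in Parental libraries, 6.81, 6.89 and 8.33 in KO and 11.6, 15.6 and 9.07 in DKO. All KO libraries lay below all others, while the DKO libraries spread from below to above the Parental ones. Counts behind these values were modest, 195 to 262 in Parental and 86 to 133 in KO libraries. Cebpb fell by 0.91 ± 0.16 on the log2 scale in KO cells, to 0.532 of the Parental level (95% interval 0.420 to 0.675, edgeR adjusted p = 0.0028). The call held in all 23 alternative analyses, with log2 fold changes of -1.02 to -0.69 and adjusted p of 1.3e-06 to 0.031. In DKO cells, which also lack Zfp352, Cebpb stood at -0.19 ± 0.15 (edgeR adjusted p = 0.49). The direct comparison of the 2 edited genotypes gave 0.72 ± 0.17 (95% interval 0.37 to 1.07), which did not pass (edgeR adjusted p = 0.15). It passed without DKO library 3, the lowest of that group (0.90, adjusted p = 0.012), and by DESeq2 (adjusted p = 0.043). Without DKO library 2, the highest, it was 0.49 (adjusted p = 0.62). The fibroblast marker sum was lower in both edited genotypes, and its part in the Cebpb value was not tested.

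Chac1, a glutathione-degrading enzyme and a sensitive ATF4 target, showed a small difference. It measured 20.01, 19.15 and 20.7 TPM in Parental libraries, 19.0, 18.7 and 18.6 in KO and 17.8, 17.1 and 16.6 in DKO. The 3 genotypes did not overlap, with Parental highest. Chac1 fell by 0.25 ± 0.08 on the log2 scale in DKO cells (edgeR adjusted p = 0.046), and stood at -0.14 ± 0.08 in KO cells (adjusted p = 0.29). This call was fragile: it was kept in 6 of 23 alternatives, and the value was -0.18 (adjusted p = 0.13) with the length trend of each library removed. Leaving out 1 library ended it for 7 of 9 libraries, which were all Parental libraries (adjusted p = 0.14, 0.10 and 0.083), KO libraries 2 and 3 (0.066 and 0.057) and DKO libraries 2 and 3 (0.11 and 0.17).

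Eif4ebp1 and Nupr1 complete the regulators. Eif4ebp1, described in full because its p was close to the threshold, measured 1039, 1008 and 1051 TPM in Parental, 896, 970 and 962 in KO and 973, 953 and 899.7 in DKO libraries. All edited libraries lay below all Parental ones. The log2 fold changes were -0.18 ± 0.05 and -0.17 ± 0.05 (edgeR adjusted p = 0.053 in both), and over the alternatives the adjusted p ran from 0.020 to 0.37 in KO and from 0.025 to 0.24 in DKO cells. With the length trend of each library removed, the values were -0.06 (adjusted p = 0.35) and -0.08 (adjusted p = 0.22). Nupr1, a small stress-induced chromatin protein, stood at -0.21 ± 0.09 and -0.20 ± 0.09 (adjusted p = 0.14 and 0.16).

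**Figure D3:**
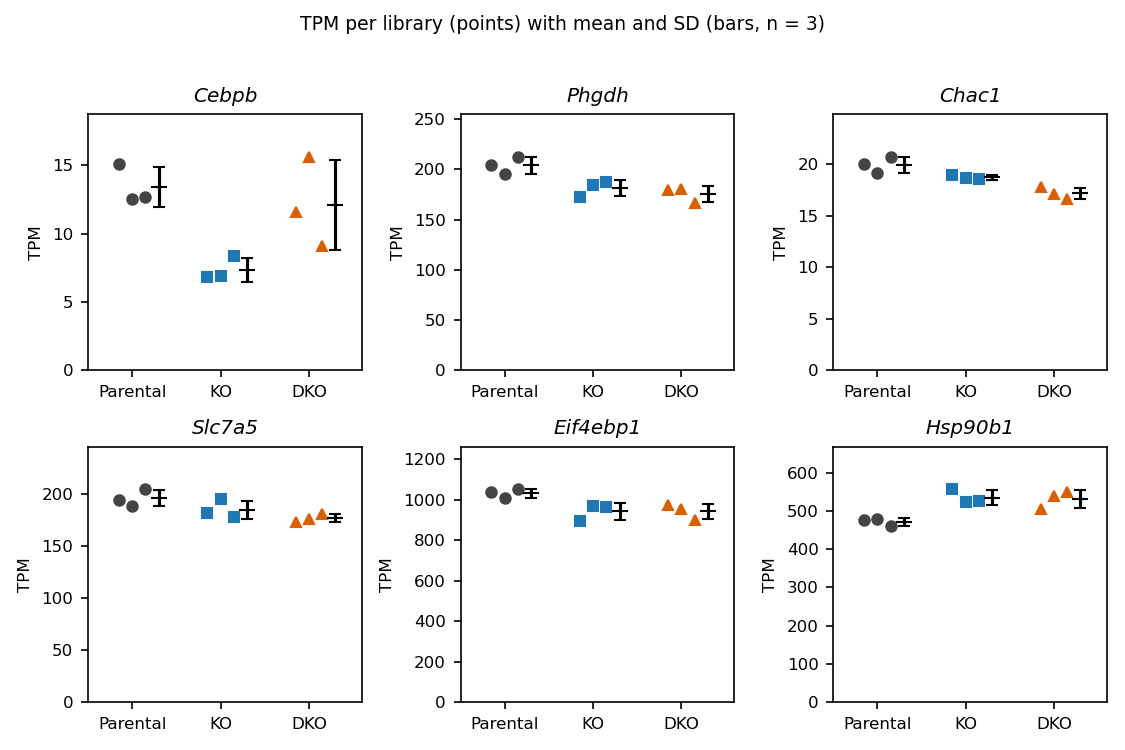
TPM per library of 6 genes in the 3 genotypes, each axis starting at 0, with the mean and SD of the 3 libraries beside the points. KO libraries of Cebpb lie at 6.81 to 8.33 TPM, below the other groups, while the differences of Phgdh, Chac1, Slc7a5, Eif4ebp1 and Hsp90b1 are small against their levels.

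Of the 9 amino acid and one-carbon enzymes, Phgdh fell in both edited genotypes and the other 8 passed no threshold, and the medians were 0.01 and -0.02 on the log2 scale. Phgdh encodes phosphoglycerate dehydrogenase, the first step of serine synthesis from glycolysis, and lies at chr3:98313171-98339969. It measured 204, 195 and 212 TPM in Parental, 172, 184 and 188 in KO and 179.6, 180.4 and 167 in DKO libraries. All edited libraries lay below all Parental ones. Phgdh fell by 0.21 ± 0.06 on the log2 scale in KO cells (edgeR adjusted p = 0.030) and by 0.25 ± 0.06 in DKO cells (adjusted p = 0.0080), that is to 0.864 and 0.839 of Parental. The second call held in all 23 alternatives (adjusted p of 0.00077 to 0.045). The first was kept in 10 of 23, stood at -0.14 (adjusted p = 0.059) after removal of the length trend and at -0.08 (adjusted p = 0.19) after removal of the GC trend as well. It was lost on leaving out any Parental library (adjusted p = 0.13, 0.076 and 0.063), KO library 1 or 2 (0.17 and 0.089) or DKO library 2 (0.050).

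The next enzymes of the serine pathway passed no threshold. Psat1, the aminotransferase after Phgdh, measured 379.7, 371 and 377 TPM in Parental, 379.7, 398 and 372 in KO and 366, 363 and 384 in DKO libraries. These groups overlapped in TPM, although in CPM the DKO libraries lay below all Parental ones, with log2 fold changes of -0.02 ± 0.04 and -0.06 ± 0.04 (edgeR adjusted p = 0.85 and 0.42). Psph, the phosphatase that completes serine, stood at 0.01 ± 0.07 and -0.04 ± 0.07. Shmt2, the mitochondrial enzyme that passes the serine carbon to folate, stood at -0.02 ± 0.05 in both, and Mthfd2, the next folate enzyme, at -0.07 ± 0.05 and -0.10 ± 0.05. Asns, the asparagine synthetase, is among the best known ATF4 targets. It measured 249.6, 265 and 260.3 TPM in Parental, 282, 285 and 277 in KO and 295, 273 and 282 in DKO libraries. All edited libraries were above all Parental ones in TPM, but they overlapped in CPM, and the log2 fold changes were 0.08 ± 0.05 and 0.09 ± 0.05 (edgeR adjusted p = 0.36 and 0.25). With the length trend of each library removed, Asns passed in both edited genotypes, at 0.14 (adjusted p = 0.039) and 0.16 (adjusted p = 0.018). The proline enzymes Aldh18a1 (0.06 ± 0.06 and 0.03 ± 0.06) and Pycr1 (0.07 ± 0.08 and 0.03 ± 0.08) and the alanine aminotransferase Gpt2 (0.03 ± 0.06 and 0.02 ± 0.06) lay near their standard errors.

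All 3 amino acid transporters had values below Parental, of which 1 passed the test in 1 comparison. Slc7a5 encodes LAT1, the importer of leucine and other large neutral amino acids, and lies at chr8:121881146-121907686. It measured 195, 189 and 205 TPM in Parental, 182, 195 and 178 in KO and 173, 176 and 181 in DKO libraries. All DKO libraries lay below all Parental ones, while KO library 2 reached the Parental range in TPM. Slc7a5 fell by 0.19 ± 0.04 on the log2 scale in DKO cells (edgeR adjusted p = 0.013), and stood at -0.13 ± 0.04 in KO cells (adjusted p = 0.079). The call was kept in 18 of 23 alternatives and was lost without Parental library 1 (adjusted p = 0.062) or DKO library 2 (0.060). Slc3a2, the heavy chain that carries LAT1 and xCT to the membrane, stood at -0.12 ± 0.05 and -0.13 ± 0.05 (adjusted p = 0.13 and 0.083). Slc7a11, which encodes xCT, was the lowest member, with 71 to 104 counts a library, and stood at -0.27 ± 0.13 and -0.32 ± 0.13 (adjusted p = 0.21 and 0.14). After removal of the length and GC trends, Slc7a11 passed in both edited genotypes, at -0.50 (adjusted p = 0.025) and -0.49 (adjusted p = 0.017).

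The 4 tRNA synthetases, which charge tRNAs with cysteine (Cars), alanine (Aars), asparagine (Nars) and glycine (Gars), had the smallest median size of log2 fold change of the 5 roles, 0.05 and 0.02. Their log2 fold changes lay between -0.03 (Gars) and 0.06 (Aars) in KO and between -0.01 (Aars) and 0.05 (Cars) in DKO cells, and none was at an unadjusted p under 0.05 in either comparison. The widest 95% interval bounds in these 2 comparisons were 0.911 of Parental for Gars and 1.11 for Cars, Aars and Nars. Among 18 other cytosolic synthetases and their cofactors, edgeR called 0 in KO and 0 in DKO against Parental, with 3 and 1 at an unadjusted p under 0.05, and DESeq2 and limma-trend called 0 as well.

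None of the 8 ER genes passed the test against Parental. Their median log2 fold change was 0.06 in KO and 0.07 in DKO cells, with 6 values above 0 and 2 below in KO, and 5 above and 3 below in DKO cells. Xbp1 measured 87.7, 84.5 and 90.7 TPM in Parental, 94.3, 88.7 and 94.6 in KO and 95.9, 91.9 and 100.3 in DKO libraries. DKO libraries were above all Parental ones and KO libraries overlapped them, with log2 fold changes of 0.09 ± 0.05 and 0.03 ± 0.05 (edgeR adjusted p = 0.24 and 0.74). Gene-level counts do not separate the spliced form of Xbp1 from the unspliced one.

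The main ER chaperones differed by small amounts. Hspa5, which encodes BiP, the chaperone that holds the stress sensors inactive, measured 294, 288 and 305 TPM in Parental, 331, 313 and 324 in KO and 306, 320.2 and 325 in DKO libraries. Every edited library was above every Parental one, but the log2 fold changes of 0.08 ± 0.04 and 0.06 ± 0.04 did not pass (edgeR adjusted p = 0.28 and 0.39). Hsp90b1, which encodes GRP94, the ER form of HSP90, measured 475, 480.1 and 459.9 TPM in Parental, 556, 522 and 525 in KO and 504, 538 and 548 in DKO libraries, and is given in full because other tests called it. All edited libraries were above all Parental ones. Its log2 fold change was 0.13 ± 0.05 in both (edgeR adjusted p = 0.083 and 0.093). DESeq2 called it (adjusted p = 0.032 and 0.049), as did limma-trend on log2(TPM + 1) (adjusted p = 0.040 and 0.036) and edgeR with the length trend removed (adjusted p = 0.018 and 0.019).

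The remaining ER genes stayed within 0.13 of Parental on the log2 scale. Calr, the calcium-binding lectin chaperone, stood at 0.04 ± 0.05 and -0.02 ± 0.05, and the disulfide isomerase Pdia4 at 0.09 ± 0.05 and 0.07 ± 0.05. Dnajb9, a BiP cochaperone, stood at 0.07 ± 0.08 and -0.02 ± 0.08, and Sdf2l1, another BiP partner, at -0.02 ± 0.09 and 0.13 ± 0.09. Herpud1, which supports degradation of ER proteins, stood at -0.07 ± 0.06 and -0.12 ± 0.06. With the length trend removed, Xbp1 passed in DKO cells (0.14, adjusted p = 0.043), and Sdf2l1 did so after removal of the length and GC trends (0.27, adjusted p = 0.028).

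The amino acid and one-carbon enzymes, without the transporters, were also set beside the ER genes. The ratio of summed TPM of the 9 enzymes to that of the 8 ER genes was 0.735, 0.733 and 0.755 in Parental, 0.661, 0.722 and 0.688 in KO and 0.716, 0.685 and 0.679 in DKO libraries. The edited libraries all lay below the Parental ones, at means of 0.690 ± 0.0309 and 0.694 ± 0.0197 (SD, n = 3) against 0.741 ± 0.0119. The sum of the enzymes was 1260 to 1277 TPM in Parental, 1262 to 1320 in KO and 1251 to 1266 in DKO libraries. That of the ER genes was 1692 to 1718, 1827 to 1917 and 1768 to 1858. The 3 amino acid transporters, which the ratio leaves out, summed to 403 to 416, 375 to 403 and 372 to 380 TPM. These sums are descriptions and were not tested. TPM also ran slightly higher over all tested genes in the edited libraries. By limma on log2(TPM + 1), their median log2 fold change was 0.031 in KO and 0.033 in DKO cells. In the edgeR fit to counts it was -0.009 and -0.000. The length relation described above also differed between libraries. DKO library 1 (rho -0.127) lay inside the Parental range of -0.412 to -0.0812. All other edited libraries lay above that range, at -0.0644 to 0.405. The part of this relation in the sums was not tested.

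The libraries were also compared one by one. In CPM, groups that did not overlap were found for 2 members above Parental (Hspa5 and Hsp90b1) and 8 below (Chac1, Cebpb, Nupr1, Eif4ebp1, Phgdh, Slc7a11, Slc7a5 and Slc3a2) in KO cells. Of all tested genes, 13.0% were above and 14.4% below without overlap in that comparison, against 6.06% and 24.2% of the members. In DKO cells, 3 members (Xbp1, Hspa5 and Hsp90b1) (9.09%) lay above Parental without overlap, against 13.1% of all genes, and 10 (30.3%) lay below, against 15.0%. The 10 were Chac1, Ppp1r15a, Eif4ebp1, Psat1, Phgdh, Mthfd2, Slc7a11, Slc7a5, Slc3a2 and Herpud1. Between the edited genotypes, 1 member (Cebpb) was higher in DKO without overlap, against 5.49% of all genes, and 4 (Chac1, Sesn2, Aars and Calr) were lower, against 5.60%. The only member that lay more than 0.5 from the Parental mean on the log2 CPM scale in any library was Cebpb, in all KO libraries and in DKO library 3 (-0.61).

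**Figure D4:**
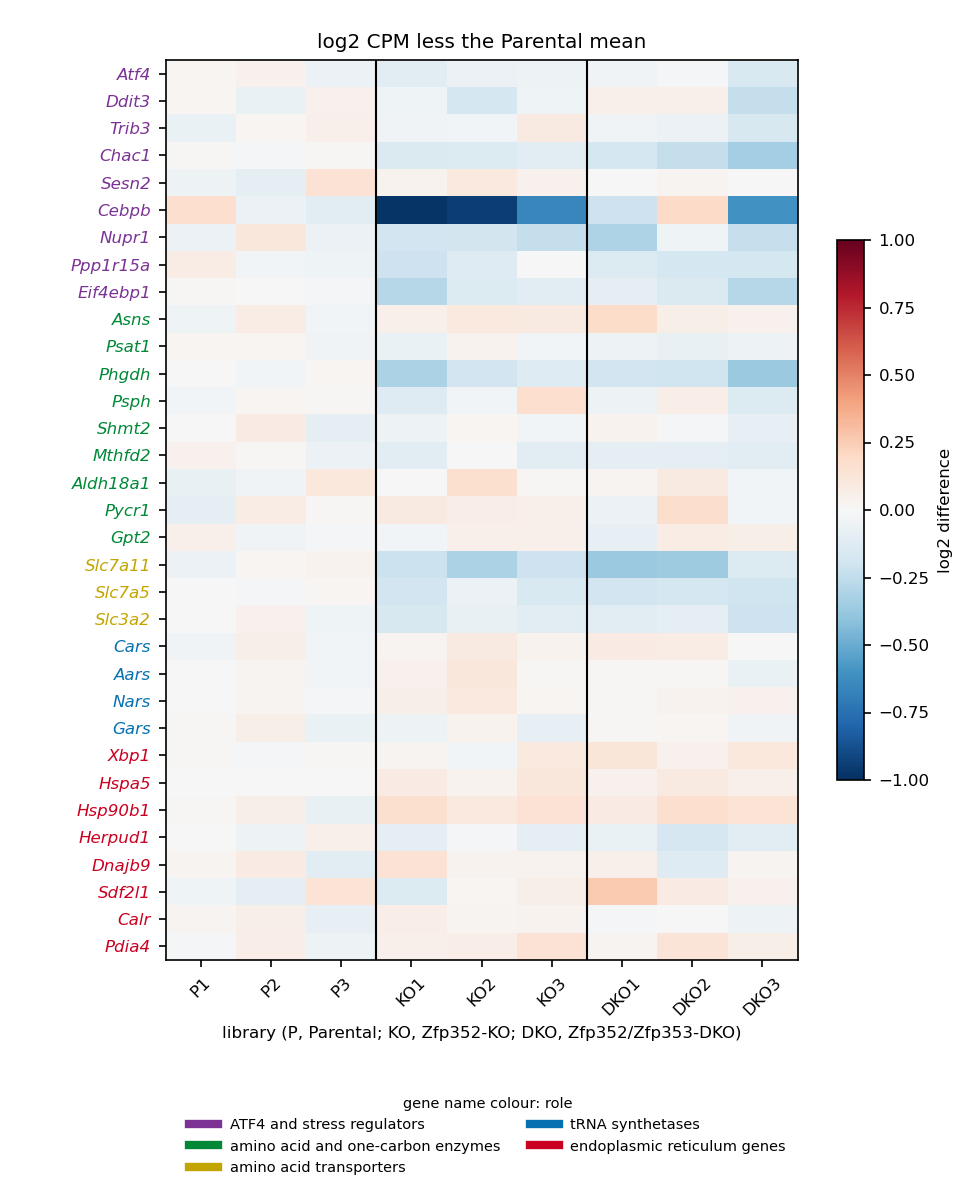
Log2 CPM of each of the 33 genes in each library less the mean of the 3 Parental libraries (blue lower, red higher, scale -1 to 1). Cebpb is the only dark row, at -0.98, -0.94 and -0.65 in the KO libraries and -0.61 in DKO library 3, and the other rows stay pale.

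Calls were also counted by promoter motif. The 9 genes with the amino acid response element core had log2 fold changes of -0.27 (Slc7a11) to 0.08 (Asns) in KO, with 0 called, and of -0.32 (Slc7a11) to 0.09 (Asns) in DKO cells, with 1 called (Chac1; 11.1%, against 8.47% of all tested genes). The 3 genes with the ER stress element ran from 0.04 to 0.13 and from -0.02 to 0.13, with 0 called. Cebpb and Phgdh were among the 17 members whose promoter windows held neither motif, and Slc7a5 had no window. These groups are too small to read a difference in calls from.

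The other genes of the pathway were counted in 5 lists. These lists were chosen with earlier results of these data known, so their shares beside those of all genes are descriptions only. Of 23 genes for stress sensors and the eIF2 machinery (among them the sensor kinases and subunits of eIF2 and eIF2B), edgeR called 0 in either edited genotype against Parental, with 6 (26.1%) at an unadjusted p under 0.05 in each, against the 23.7% and 24.5% of all genes given above. DESeq2 called 1 of these higher in KO cells and 0 in DKO cells, and limma-trend called 0 in both. Of 20 tested genes among other ATF4 targets and partners, 5 fell in KO cells (25.0%, against 7.06% of all tested genes) and 3 fell and 1 rose in DKO cells (4 of 20, against 8.47%). Atf3, a stress-induced bZIP repressor, measured 5.15, 4.22 and 4.24 TPM in Parental, between 2.41 and 2.95 in KO and 1.87, 1.64 and 2.87 in DKO libraries. All edited libraries lay below all Parental ones, and Atf3 fell by 0.79 ± 0.18 and 1.15 ± 0.18 on the log2 scale (edgeR adjusted p = 0.012 and 0.00058). Atf3 in KO cells did not pass without Parental library 1 (adjusted p between 0.0010 and 0.098 over the alternatives), KO library 1 or KO library 2. Ddit4, which encodes the mTORC1 inhibitor REDD1, fell by 0.47 ± 0.09 and 0.35 ± 0.09 (edgeR adjusted p = 0.0062 and 0.026), and was lost without Parental library 1 in both comparisons and without Parental library 2 or DKO library 2 in the second. Stc2 (-0.34), Ndrg1 (-0.31) and Hmox1 (-0.17) also fell in KO cells, while in DKO cells Stbd1 fell (-0.85) and Nfe2l2, the gene of the antioxidant regulator NRF2, rose (0.19).

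Of 30 further amino acid and one-carbon genes, 1 rose and 2 fell in KO cells (10.0%, against 7.06% of all tested genes), and 1 rose and 4 fell in DKO cells (16.7%, against 8.47%). Slc7a3, a transporter of cationic amino acids, rose by 0.27 ± 0.06 and 0.35 ± 0.06 (edgeR adjusted p = 0.0074 and 0.00062), from 93.4 to 106 TPM in Parental to 121 to 132 in KO and 129.5 to 134 in DKO libraries. The proline enzyme Pycrl (-0.30 and -0.26) fell in both, and the branched-chain aminotransferase Bcat2 (-0.20) and the transporter Slc43a1 (-0.38) fell in DKO cells. Of 40 other ER genes, 2 rose in KO cells, the glycoprotein folding factors Canx and Uggt1 (0.17 each), 1 rose in DKO cells, Edem3 (0.24), and 0 fell, shares below the 7.06% and 8.47% of all tested genes. The calls of Canx and Uggt1 were each kept in 10 of 23 alternatives, and with the length and GC trends removed Canx stood at 0.07 (adjusted p = 0.22) and Uggt1 at 0.03 (adjusted p = 0.74). The same removal moved Hmox1 in KO cells to -0.06 (adjusted p = 0.36), Bcat2 in DKO cells to -0.09 (0.19) and Pycrl to -0.15 (0.15) and -0.14 (0.13). It moved Edem3 in DKO cells to 0.14 (0.048) and Ddit4 there to -0.23 (0.063). In DKO against KO cells, 0 of the 131 tested genes of these 5 lists were called by edgeR, with 6 at an unadjusted p under 0.05, and DESeq2 and limma-trend called 0. Many calls among these related genes rested on single libraries. Of the 20 calls against Parental, 2 were kept whichever library was left out (Atf3 and Slc7a3, both in DKO cells). The other 18 were lost without at least 1 library, and 15 of the 20 were lost without Parental library 1. Without Parental library 2 or 3, 9 and 8 were lost, without KO library 1 or 2, 8 and 9, without DKO library 1, 2 or 3, 2, 12 and 4, and without KO library 3, 0.

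**Figure D5:**
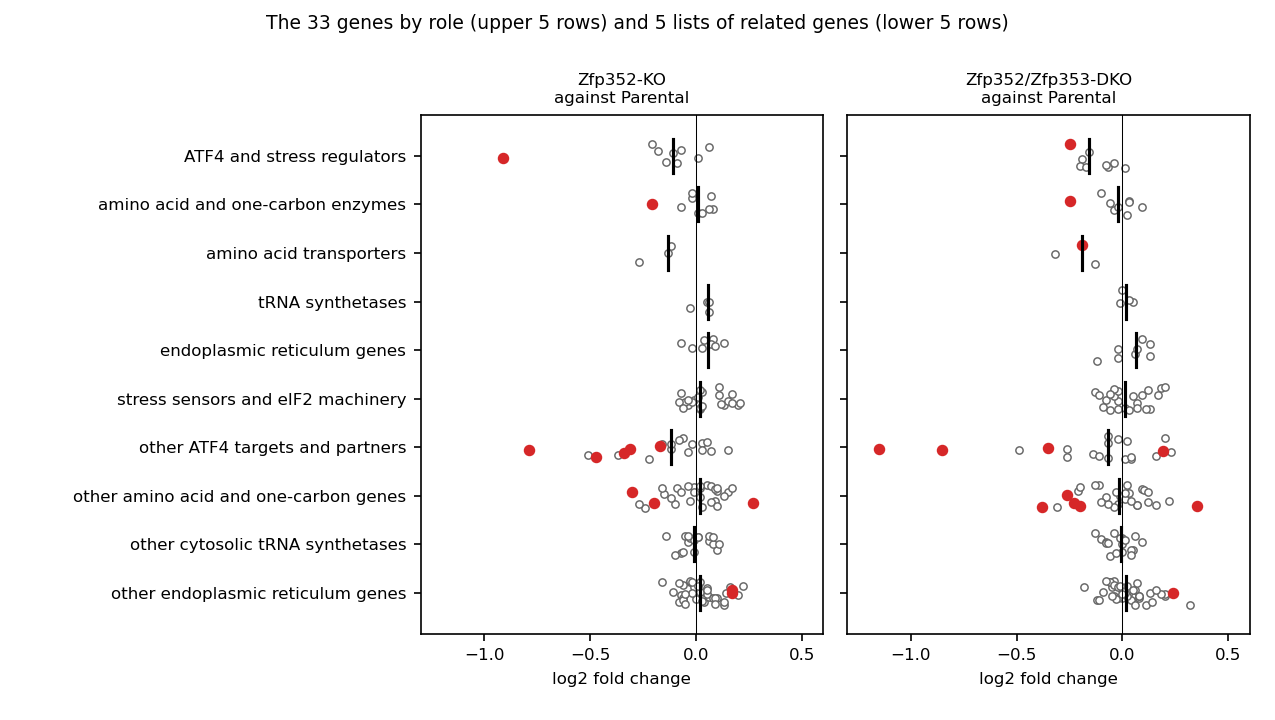
Log2 fold changes against Parental of the 33 genes by role (upper 5 rows) and of 5 lists of related genes (lower 5 rows), 1 point per gene, filled where edgeR's adjusted p was under 0.05, with vertical bars at the medians and points spread vertically for legibility. Medians lie between -0.19 and 0.07 in every row, and the points furthest from 0 are Cebpb, Atf3 and Stbd1.

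The members lie away from the Zfp352 locus. The position of Zfp353, the other gene edited in DKO cells, was not looked up. The 33 genes lie on 14 chromosomes of GRCm38.p6, 1 of them (Sesn2) on chromosome 4 with Zfp352 (chr4:90218820-90225687), and 0 within 500 kb of it. For 8 members (Ddit3, Psph, Shmt2, Ppp1r15a, Hspa5, Pdia4, Cars and Aars) the gene span overlaps another gene of the tables. Whether counting used the strand is not given in the sources used here, so these 8 are less certain, while Cebpb, Phgdh, Chac1 and Slc7a5 overlap none.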

How the data were processed

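Libraries (TruSeq Stranded mRNA kit, NextSeq 500, single-end reads) were trimmed with Trim Galore 0.6.6, aligned with STAR 2.7.8a and quantified with RSEM 1.3.3 on mm10, per the submitters' processing notes. Neither the annotation release nor the strand setting is given in the sources used here. The deposited tables hold expected counts per gene, TPM and FPKM, per the file headers. FPKM was not used. Of the expected counts, 9.27% were not whole, in 2 members among the 33, and counts were rounded.

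All 9 libraries entered 1 fit in edgeR 4.0.16 (R 4.3.3), with TMM factors of 0.992 to 1.01, filterByExpr, the quasi-likelihood test (two-sided) and Benjamini-Hochberg adjustment over 14300 genes, called at an adjusted p under 0.05. The biological coefficient of variation was 4.95%. Standard errors and 95% intervals came from the same fit and cover the spread between libraries. Alternatives used DESeq2 1.42.0, limma 3.58.1 on log2(TPM + 1) and log2(TPM + 0.1), other scaling and filters, a replicate block and omission of each library. Others removed each library's length trend, or its length and then its GC trend, by local regression (span 0.3) as an offset. The scripts were tested on simulated counts. No pair of replicates agreed within sampling noise (chi-square per degree of freedom 2.50 to 7.06). Values of every library were given for called members and for Atf4, Ddit3, Xbp1, Hspa5, Asns and Psat1. Of related genes, up to 4 called per list and comparison were named (2 more were named to complete a count of 5 or fewer). Among these related genes, TPM was given only for Atf3 and Slc7a3. The members and lists were chosen with earlier results of these data known. Promoters and positions came from RefSeq (GRCm38.p6). The values of 1 related gene are not reported here.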

Additional observations from a re-analysis of the deposited data

How the results depend on the processing

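No member changed direction while called in any of 23 alternatives. In Zfp352-KO against Parental cells, 0 members were higher in the report, against 1 by DESeq2 and 1 by limma-trend at either pseudocount. The number was 2 with the length trend removed and 2 after removal of the length and GC trends. With a replicate block added and the length trend removed, it was 1. There 2 were lower, against 1 by limma-trend, at an adjusted p under 0.01 and with the replicate block. It was also 1 with the length trend removed, 1 with the block added and that trend removed, and 1 to 3 on leaving out 1 library. Eif4ebp1 was called lower as well by DESeq2, with library totals only, with no filter, at a mean CPM of at least 1 and with only the 6 libraries compared. In Zfp352/Zfp353-DKO against Parental cells, 0 were higher, against 1 by DESeq2 and 1 by limma-trend. The number was 3 with the length trend removed and 4 after removal of the length and GC trends. With a replicate block added and the length trend removed, it was 3. There 3 were lower, against 1 by limma-trend, 1 at an adjusted p under 0.01, and 1 to 4 on leaving out 1 library. Eif4ebp1 was called lower as well with upper quartile factors and at a mean CPM of at least 1. It was called in place of Chac1 by DESeq2, with no filter and with only the 6 libraries compared. Between the edited genotypes 0 were higher, against 1 by DESeq2, with no filter, with the length trend removed or after removal of the length and GC trends, and 0 to 1 on leaving out 1 library. DESeq2 gave no adjusted p for Atf3 in Zfp352-KO cells. The cause of these shifts was not tested. Over all genes, leaving out 1 library gave 50 to 838 higher and 160 to 714 lower in Zfp352-KO, against 490 and 520. The labels do not say whether the replicate numbers pair the libraries. Correlations of same-numbered deviations were -0.0477 to 0.106 against Parental and -0.0767 to 0.0380 between the edited genotypes. With 3 libraries per genotype these correlations cannot decide it. The replicate block gave 232 higher and 337 lower genes in Zfp352-KO cells. Counts of 71 to 133 limit precision for Slc7a11 in all libraries and for Cebpb in Zfp352-KO cells.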
